A study of Mus musculus with 1 sample.

Results

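The clustered histone genes of the mouse were followed in single cells of MC38 tumors. They were chosen by name, as all genes of the deposited gene list whose symbol starts with Hist1h, Hist2h, Hist3h or Hist4h, and the rule used no measured value. It gave 67 of 32285 genes: 6 of the linker histone H1, 18 of H2A, 18 of H2B, 12 of H3 and 13 of H4. MC38 is a transplantable mouse colon carcinoma line. The library holds the cells of 5 control tumors, grown in C57BL/6J mice of 4 to 6 weeks, pooled in equal parts and labelled WT, a label that was taken to mean the shNTC control arm of the design. The knockdown arm was not analysed here. With 1 library and no record of which cell came from which mouse there are no replicates and no tests, and every interval is an exact 95% interval that covers counting error only.

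Histones are the proteins around which DNA is wound. A nucleosome holds a core of H2A, H2B, H3 and H4, and H1 binds the linker DNA between nucleosomes. A cell that copies its genome needs a new set of histones, and most clustered histone genes are transcribed at a high rate only in S phase. The mRNA of such a replication-dependent gene normally has no poly(A) tail: it ends after a short stem-loop that is bound by the protein SLBP. Some of these genes can also give a longer, polyadenylated transcript, and Hist1h1c, Hist1h2bc and Hist2h2be are textbook cases. The library was primed with oligo-dT, which needs a run of A in the RNA, so a value here is the number of captured molecules (UMIs) and not the number of histone mRNAs in the cell. A captured molecule counts once whatever its length, and levels were not divided by length.

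The cells were split by the summed UMIs of Mki67, a protein of cycling nuclei, and Top2a, a topoisomerase of dividing cells. Cells with 0 such UMIs were set against cells with 3 or more. Levels are given as CPM, the UMIs of a gene in a group of cells per 1000000 UMIs of that group, and a ratio is the CPM of the cells with 3 or more over that of the cells with 0. After filters, 4468 of 5307 called cells were kept, of which 1855 were tumor cells, 1310 macrophages and 136 T cells, and no barcode occurred more than once. The split also separates cells by depth: the median cell had 18499 UMIs in the tumor cells with 0 and 52613 in those with 3 or more, against 8629 and 13282 in macrophages and 4604 and 7332 in T cells. The classes held 423 and 989 tumor cells, 695 and 236 macrophages, and 86 and 18 T cells at 0 and at 3 or more.

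The classes were named with the marker lists used here, and low Xist was part of the rule for tumor cells. The marker levels below therefore describe the classes and are no independent check of the names. The clusters of tumor cells had 4 of the 7 MC38 markers raised, Rhox5 at 693 CPM and Shisal2b at 214 CPM among them, and the host gene Xist at 3.32 CPM against 795 CPM in macrophages. The 7 markers summed to 953 CPM in the tumor cells with 0 and 1080 CPM in those with 3 or more. Between these groups Rhox5 went from 734 to 676 CPM and Shisal2b from 108 to 254 CPM. The label calls the MC38 cells epithelial, but the epithelial markers were near absent, with 0 UMIs of Krt18, 7 of Krt8 and 5 of Epcam over all tumor cells. All 7 macrophage markers were found in the macrophages, at a sum of 21805 CPM in the cells with 0 and 19446 CPM in those with 3 or more. All 7 T-cell markers were found in the T cells, at 4773 and 5478 CPM. In the T cells the 4 NK markers summed to 554 CPM at 0 and 176 CPM at 3 or more, and their part in the T-cell ratios was not tested.

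The sequences that tie these genes together were read first, since they bear on what was captured. In the GENCODE M21 annotation (GRCm38), all 67 genes were found: 54 lie on chromosome 13 between 21715763 and 23934851, 10 on chromosome 3 between 96219865 and 96270132, 2 on chromosome 11 between 58948920 and 58956830, and 1 on chromosome 6 between 136801553 and 136804415. A transcript of 62 of them has a single exon. The stem-loop was found after the stop codon of 45 of them. Of the other 22 several, such as Hist1h2bn and Hist1h3i, have 0 annotated bases there, so the stem-loop could not be looked for. It is printed below for genes that the results turn on, 5′ to 3′, with the loop in capitals and the stem in lower case.
Hist1h1c: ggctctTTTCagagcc
Hist3h2a: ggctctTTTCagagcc
Hist1h2ap: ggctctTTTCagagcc
Hist1h4i: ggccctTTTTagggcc
It starts 25 bases after the stop codon in Hist1h1c, 42 in Hist3h2a, 39 in Hist1h2ap and 31 in Hist1h4i. What follows it differs far more: the annotated transcript of Hist1h2ap ends 3 bases after the stem, and those of Hist1h4i, Hist1h1c and Hist3h2a go on for 330, 840 and 1643 bases. The annotated transcript of Hist1h1b ends at its stop codon, so no stem-loop could be looked for there, and its densest window of coding sequence held 14 A in 20 bases, the most of any member.

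The promoters were read from RefSeq (GRCm38.p6), where 61 of the 67 genes were matched. The 120 bases before the start are printed for an H1 pair, an H2A pair and the H4 gene with most UMIs. Each pair holds a gene with a high and a gene with a low tumor ratio below. Capitals mark CCAAT or TATAAA or ATTTGCAT or AAACACA, and in the H4 gene also GGTCC, on either strand; matches of different motifs were allowed to overlap.
Hist1h1b (chr13:21780626-21780745, minus strand): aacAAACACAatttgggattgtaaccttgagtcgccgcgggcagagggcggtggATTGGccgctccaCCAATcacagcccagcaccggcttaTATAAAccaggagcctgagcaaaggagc
Hist1h1c (chr13:23738687-23738806, plus strand): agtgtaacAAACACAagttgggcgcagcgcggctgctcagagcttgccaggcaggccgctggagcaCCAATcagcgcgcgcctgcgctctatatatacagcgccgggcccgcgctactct
Hist1h2ap (chr13:21833476-21833595, minus strand): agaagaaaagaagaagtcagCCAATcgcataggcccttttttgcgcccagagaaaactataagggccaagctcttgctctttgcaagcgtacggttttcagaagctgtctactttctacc
Hist3h2a (chr11:58954565-58954684, plus strand): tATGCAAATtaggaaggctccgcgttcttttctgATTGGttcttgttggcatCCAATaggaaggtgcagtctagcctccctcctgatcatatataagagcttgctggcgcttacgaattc
Hist1h4i (chr13:22041363-22041482, minus strand): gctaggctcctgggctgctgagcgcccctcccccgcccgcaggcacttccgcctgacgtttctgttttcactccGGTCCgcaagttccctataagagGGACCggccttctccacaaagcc
Within 250 bases before the start, CCAAT stood in 5 of 5 H1, 18 of 18 H2A, 16 of 16 H2B, 8 of 10 H3 and 3 of 12 H4 promoters, and in 33.9% of all 32851 RefSeq promoters. AAACACA stood in 4 of 5 H1 promoters against 6.25% of all, and the octamer ATTTGCAT in 7 of 18 H2A and 6 of 16 H2B promoters against 1.60%. GGTCC stood in 11 of 12 H4 promoters against 39.8%, and TATAAA in 45.9% of the members against 12.4%. These are matches of letters only. Hist1h1b and Hist1h1c both carry AAACACA and CCAAT, and TATAAA stands in the printed stretch of Hist1h1b alone.

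The summed level of the 67 genes was higher in the cells with 3 or more UMIs of Mki67+Top2a in all 3 classes. In tumor cells it was 662 CPM (645 to 678) at 0, 669 CPM at 1 or 2 and 1501 CPM (1491 to 1511) at 3 or more, a ratio of 2.27 (2.21 to 2.33). In macrophages it was 540 CPM (522 to 558), 552 CPM and 2870 CPM (2814 to 2927), a ratio of 5.32 (5.12 to 5.53). The T cells gave 536 CPM (471 to 608), 1077 CPM and 3010 CPM (2720 to 3322), a ratio of 5.61 (4.77 to 6.61). The levels of the 3 classes lay within 536 to 662 CPM in the cells with 0, and in the cells with 3 or more the tumor cells were lowest. In tumor cells and macrophages the cells with 1 or 2 UMIs lay close to those with 0.

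The levels varied widely among cells of the same group. In the tumor cells with 3 or more the summed level of a cell had a median of 1136 CPM, with 10% of the cells below 364 and 10% above 3443. In macrophages with 3 or more the median was 2787 CPM, with the same limits at 368 and 6910, and in those with 0 it was 446 CPM. A tumor cell with 3 or more held UMIs of 18.3 of the 67 genes on average and one with 0 of 6.22, at the unequal depths given above. Thinned to 2000 UMIs a cell, which left out 24 and 8 shallower tumor cells at 0 and at 3 or more and 7 and 0 macrophages, the mean was 3.08 UMIs of the 67 genes in tumor cells with 3 or more against 1.59 in those with 0, and 6.14 against 1.22 in macrophages.

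**Figure D1:**
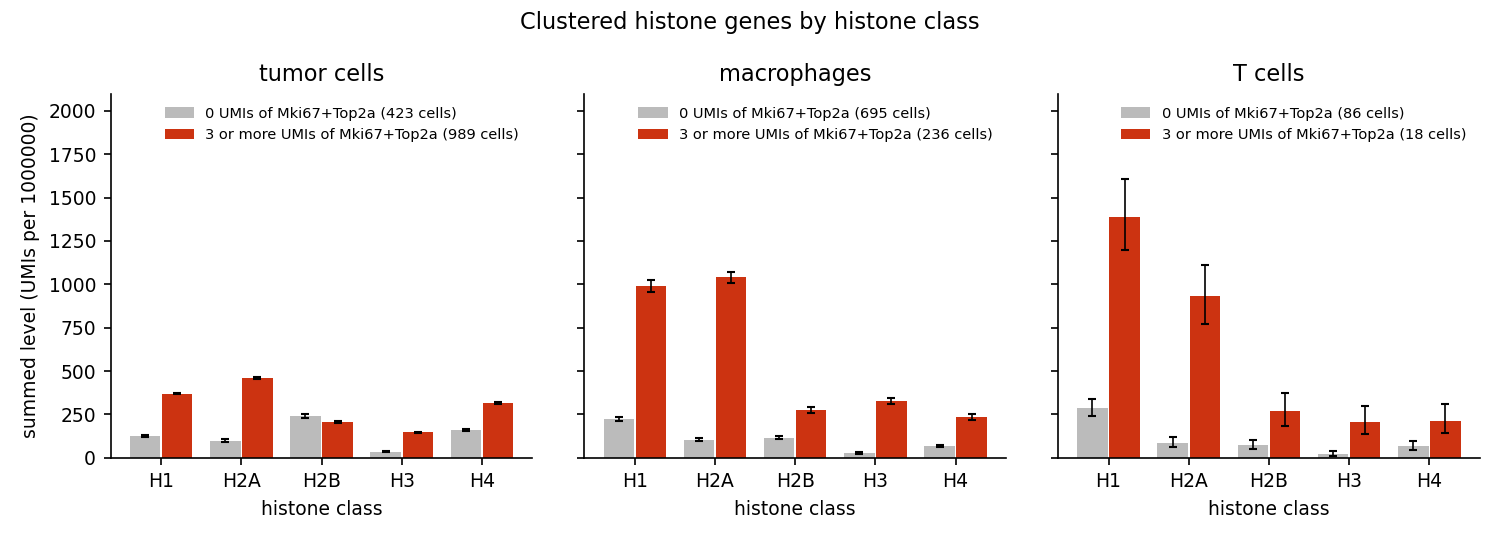
Summed level in UMIs per 1000000 (y axis) of the clustered genes of each histone class (x axis) in tumor cells, macrophages and T cells. Grey bars are cells with 0 and red bars cells with 3 or more UMIs of Mki67+Top2a, and error bars are exact 95% Poisson intervals. In tumor cells the 2 bars of H2B are close (240 and 206), while those of H2A stand at 99.6 and 462.

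The histone classes did not share 1 ratio. In tumor cells the summed ratio was 2.95 (2.78 to 3.13) for H1, 4.64 (4.35 to 4.95) for H2A, 4.11 (3.69 to 4.59) for H3 and 1.96 (1.86 to 2.07) for H4, and H2B was lower in the cells with 3 or more, at 0.860 (0.822 to 0.900). Without Hist1h2bc the H2B genes together gave 3.15 (2.86 to 3.48), so 1 gene set the direction of its class. In macrophages the ratios were 4.39 for H1, 10.0 for H2A, 2.41 for H2B, 11.7 for H3 and 3.52 for H4, and in T cells 4.87, 10.6, 3.58, 9.38 and 3.24. H2A and H3 thus had the highest ratios and H4 and H2B the lowest in each class of cells.

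Of the 67 genes, 64 had a UMI in tumor cells, 61 in macrophages and 48 in T cells, and 3, named here for that, had none in any class (Hist1h2bq, Hist1h2ba and Hist1h2aa). A ratio per gene was read where both groups together held 20 or more UMIs, which 57 members passed in tumor cells, 46 in macrophages and 7 in T cells. The 10, 21 and 60 others are not counted below, and a gene that is high in 1 group passes more easily. In tumor cells 39 of the 57 were at 2 times or more and 1 at 0.5 times or less, with a median ratio of 2.89. Among all 12611 genes with 20 or more UMIs there, 6.13% were at 2 times or more and 3.93% at 0.5 times or less, with a median of 1.01. In macrophages 38 of 46 were at 2 times or more and 0 at 0.5 times or less, median 7.07, against 6.82% and 2.67% of 10563 genes and a median of 1.05. In T cells 7 of 7 were at 2 times or more, median 3.63, against 9.09% and 7.63% of 3643 genes and a median of 1.07. The interval of the ratio lay above 1 for 42 members in tumor cells and 40 in macrophages, and below 1 for 3 and 1. The same counts over all genes are not given here, so these numbers cannot be set against a background.

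**Figure D2:**
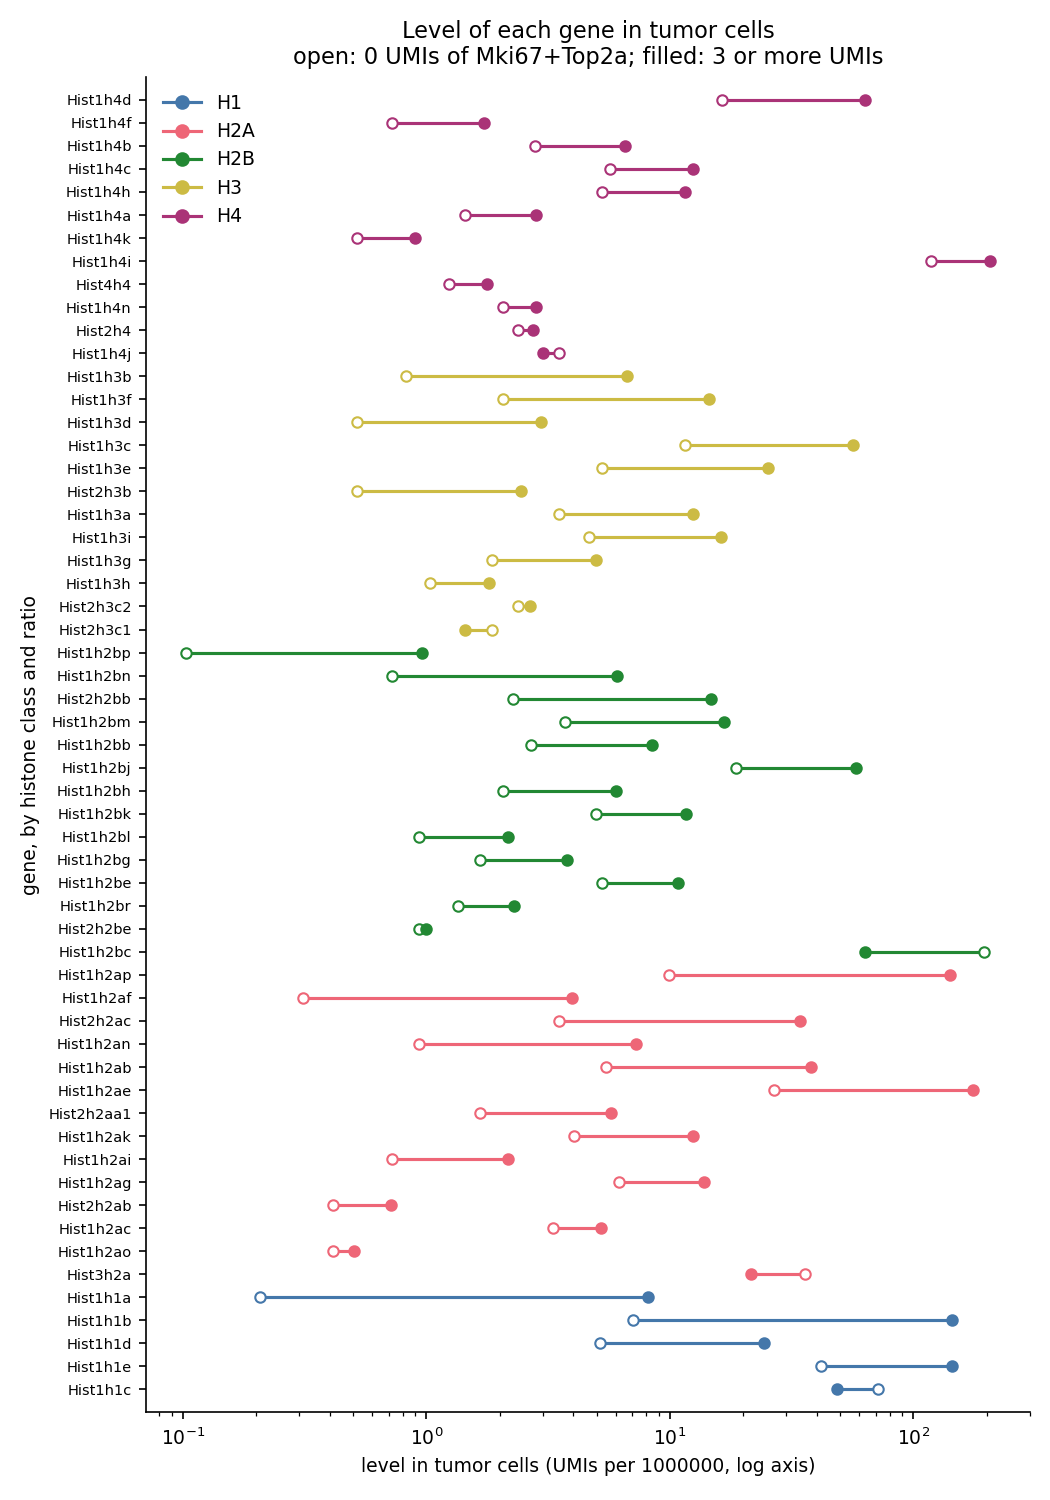
Level in tumor cells (x axis, UMIs per 1000000, log axis) of the 57 genes (y axis) with 20 or more UMIs, grouped by histone class and ordered by ratio. Open points are cells with 0 and filled points cells with 3 or more UMIs of Mki67+Top2a. Hist1h2bc, Hist3h2a and Hist1h1c are the well-counted genes whose open point lies to the right.

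Among the linker histones, Hist1h1b and Hist1h1a were found mainly in the cells with Mki67 and Top2a. Hist1h1b (ENSMUSG00000058773, chr13:21779883-21780625, minus strand) had 68 UMIs in the tumor cells with 0, 125 in those with 1 or 2 and 7701 in those with 3 or more, a ratio of 20.5 (16.2 to 26.5). Its level in macrophages was 15.9 CPM against 410 CPM (ratio 25.7, 21.04 to 31.7) and its UMIs in T cells were 12 against 63 (ratio 18.2, 9.75 to 37.2). The size of this ratio depended on the setting: with cells thinned to 2000 UMIs and split at 1 or more it was 3.81 in tumor cells, 12.8 in macrophages and 8.39 in T cells, and as a mean over cells 9.78, 22.3 and 12.2. Hist1h1a had 2 UMIs in tumor cells with 0 and 433 in those with 3 or more, which gives 39.3 with an interval from 10.8 to 325, but only 1.99 as a mean over cells, in which a UMI in a shallow cell counts for more. In macrophages 9 against 123 UMIs gave 25.4 (12.9 to 56.8). Hist1h1d and Hist1h1e were found in both groups of cells. Hist1h1e stood at 41.7 CPM and 145 CPM in tumor cells (ratio 3.47, 3.14 to 3.85) and at 65.9 and 324 CPM in macrophages (4.92, 4.40 to 5.52). Hist1h1d had ratios of 4.69, 4.61 and 3.63 in tumor cells, macrophages and T cells.

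Hist1h1c (ENSMUSG00000036181, chr13:23738808-23740367, plus strand) did not follow the other H1 genes in tumor cells. It had 71.4 CPM (691 UMIs) in the cells with 0 and 48.6 CPM (2594 UMIs) in those with 3 or more, a ratio of 0.681 (0.626 to 0.742), and was the member with most UMIs in macrophages with 0, at 124 CPM against 138 CPM (1.11, 0.993 to 1.25). In T cells 35 UMIs in 21 of 86 cells stood against 34 UMIs in 11 of 18 cells, a ratio of 3.38 (2.04 to 5.57), and the T cells with 1 or 2 held 58 UMIs, 20 of them in 1 cell. Within the 3 clusters that make up the tumor cells the ratio was 1.12, 0.973 and 0.765, each of them above the pooled value.

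Among the H2A genes, which code for a core histone that pairs with H2B, Hist1h2ap (ENSMUSG00000094777, chr13:21833026-21833507, minus strand) had the highest tumor ratio of pooled UMIs. It stood at 9.92 CPM (96 UMIs) and 141 CPM (7519 UMIs) in tumor cells, a ratio of 14.2 (11.6 to 17.6), at 11.3 and 308 CPM in macrophages (27.3, 21.5 to 35.1), and at 4 and 48 UMIs in T cells (41.7, 15.3 to 159). Of its 90-base windows 92.4% occur in another member, so most of its sequence does not tell it from near-identical copies, and how the counts were shared among them is uncertain. Its tumor ratio was 3.93 in thinned cells and 9.68 as a mean over cells, where Hist1h2an, with 9 and 386 UMIs, was higher at 11.4, and its macrophage ratio was 9.55 in thinned cells. Hist1h2ae had more UMIs and a lower ratio, with 26.7 and 175 CPM in tumor cells (6.56, 5.79 to 7.45) and 23.8 and 453 CPM in macrophages (19.0, 16.1 to 22.6). Hist1h2ab, at 6.95 and 22.0, and Hist2h2ac, at 9.71 and 7.81 in tumor cells and macrophages, were further H2A genes far above 2. Hist1h2af had only 3 UMIs in the cells with 0 of either class, with ratios of 12.8 (4.31 to 62.4) and 43.3 (14.2 to 215). Hist3h2a (ENSMUSG00000078851, chr11:58954685-58956830, plus strand), which lies apart from the large cluster, was lower in the tumor cells with 3 or more, at 35.9 CPM (347 UMIs) and 21.4 CPM (1144 UMIs), a ratio of 0.598 (0.530 to 0.676), though in thinned cells its 56 and 28 UMIs gave 1.01. In macrophages it stood at 45.3 and 37.6 CPM (0.830, 0.670 to 1.02), an interval that holds 1.

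Among the H2B genes, Hist1h2bc (ENSMUSG00000018102, chr13:23684199-23692908, plus strand) stood apart. It was the most abundant member in tumor cells with 0, at 195 CPM (1882 UMIs), and stood at 63.2 CPM (3373 UMIs) in those with 3 or more, a ratio of 0.325 (0.307 to 0.344). It was the only counted member at 0.5 times or less in any class. The ratio was also below 1 in macrophages, at 87.4 and 66.3 CPM (0.759, 0.648 to 0.886), while in T cells its 16 and 3 UMIs gave 0.652 (0.122 to 2.28). Of those 16 UMIs 7 lay in 1 cell, without which the T-cell ratio was 1.15 (0.199 to 4.59), so it cannot be placed above or below 1 there. A UMI of it was found in 60.3% of tumor cells with 0 and 61.5% of those with 3 or more at their own depths, and in 29.1% and 10.5% when each cell was thinned to 2000 UMIs. The next H2B genes by UMIs went the other way: Hist1h2bj had ratios of 3.13 (2.69 to 3.66) in tumor cells and 6.29 (4.41 to 9.14) in macrophages, Hist1h2bm 4.49 and 11.6, Hist2h2bb 6.49 and 7.75, and Hist1h2be 2.05 and 5.95. Hist2h2be, the other H2B gene that textbooks give as polyadenylated, had 9 and 53 UMIs in tumor cells (1.07, 0.522 to 2.46) and 15 and 14 in macrophages (1.73, 0.774 to 3.85), too few to place it above or below 1.

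The H3 genes, which code for the core histone that carries the best known tail modifications, were low in the cells with 0 of both classes. Hist1h3c stood at 11.5 and 56.4 CPM in tumor cells (4.92, 4.07 to 6.00) and at 5.10 and 140 CPM in macrophages (27.4, 19.3 to 40.3). The 2 intervals do not overlap. Hist1h3e had ratios of 4.81 and 10.8, Hist1h3i 3.47 and 28.9, Hist1h3f 7.03 and 20.6, and Hist1h3a 3.53 and 5.66 in tumor cells and macrophages. Hist1h3d had the lower ratio in macrophages, 1.89 (1.26 to 2.83) against 5.70 (2.39 to 17.8), with intervals that overlap.

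Among the H4 genes, Hist1h4i (ENSMUSG00000060639, chr13:22040636-22041362, minus strand) had more UMIs than any other member in tumor cells and was high in both groups. It stood at 119 CPM (1147 UMIs) and 206 CPM (10960 UMIs), a ratio of 1.73 (1.63 to 1.84), and in macrophages at 29.9 and 55.7 CPM (1.87, 1.52 to 2.29). The tumor interval lies below 2 and above 1. Hist1h4d was the next H4 gene, with 3.83 (3.27 to 4.52) in tumor cells and 6.39 (5.19 to 7.92) in macrophages. Hist1h4c, Hist1h4h and Hist1h4b had ratios of 2.19, 2.18 and 2.35 in tumor cells and 6.73, 4.58 and 1.39 in macrophages. In tumor cells only 5 of the 12 H4 genes counted were at 2 times or more, against 10 of 14 H2A, 11 of 14 H2B, 9 of 12 H3 and 4 of 5 H1 genes.

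In all, 5 of the 57 members had a tumor ratio below 1. Besides Hist1h2bc, Hist3h2a and Hist1h1c these were Hist2h3c1 (0.776, 0.460 to 1.38) and Hist1h4j (0.854, 0.587 to 1.27), which are named after their values were seen and whose intervals hold 1. The mix of transcripts shifted accordingly. Hist1h2bc, Hist1h4i and Hist1h1c made up 58.1% of all member UMIs in tumor cells with 0, and the top 3 in those with 3 or more, Hist1h4i, Hist1h2ae and Hist1h1e, made up 35.0%. In macrophages the top 3 went from 51.4% (Hist1h1c, Hist1h2bc, Hist1h1e) to 41.4% (Hist1h2ae, Hist1h1b, Hist1h1e).

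**Figure D3:**
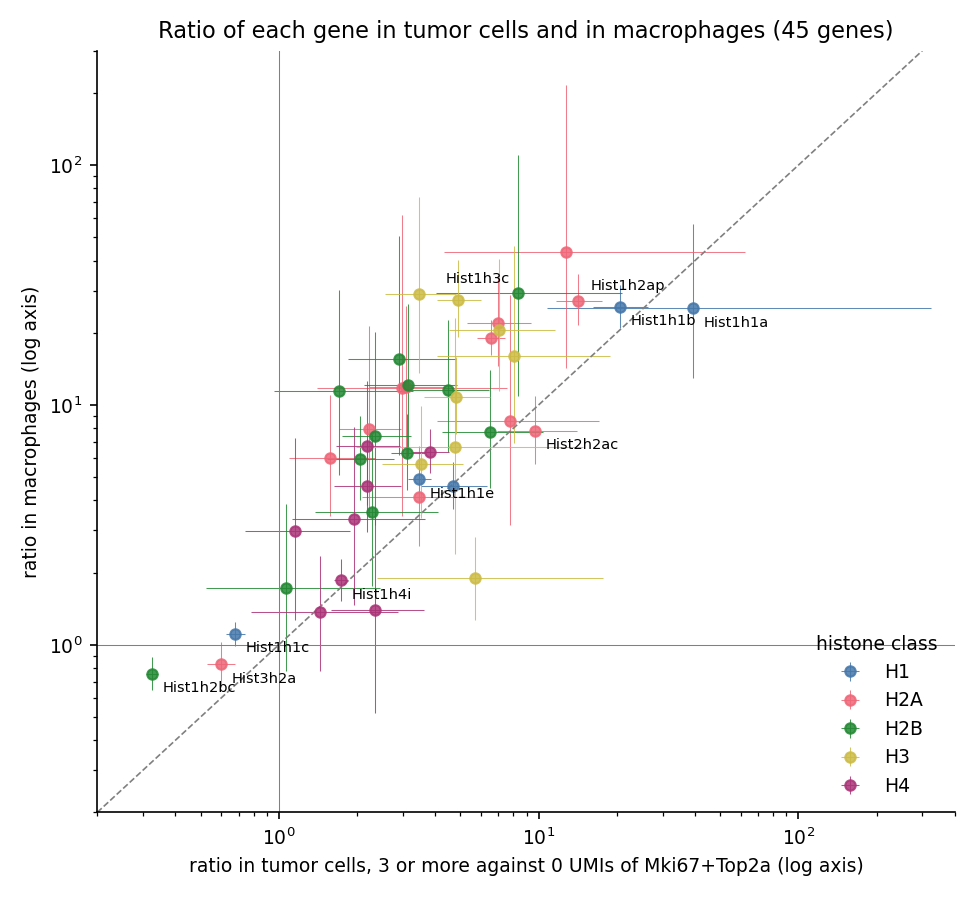
Ratio of each of 45 genes, 3 or more against 0 UMIs of Mki67+Top2a, in tumor cells (x axis) and macrophages (y axis), both on log axes, coloured by histone class, with exact 95% intervals. The dashed line marks equal ratios, and 39 of the 45 points lie above it.

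The ratios of single genes were mostly larger in macrophages. Of the 45 members with 20 or more UMIs in both classes, 39 had a higher ratio in macrophages than in tumor cells. The share of all genes with a higher ratio in macrophages is not given here. The median ratio of 50 genes of G2 and M was 6.72 in tumor cells and 11.15 in macrophages. That of 38 genes of S phase was 4.13 and 3.89. Whether the gap is particular to the clustered histone genes was not tested. Hist1h1a, Hist1h1d, Hist2h2ac, Hist1h3d and Hist1h4b were among the 6 other members. The order of the genes was much alike: across these 45 genes the log2 ratios had a Pearson's r of 0.774 and the ratios a Spearman's rho of 0.731, as a description of genes that share cells, library and depth. The tumor cells with 0 and those with 3 or more differed more in depth than the macrophages did, and whether this sets the gap between the classes was not tested.

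Where the cells lay among the clusters moved with the ratios. In tumor cells 75.6% of the cells with 3 or more and 18.0% of those with 0 lay in 1 cluster, in which the summed ratio was 2.26 (2.13 to 2.41), and the other 2 clusters gave 1.59 (1.52 to 1.67) and 1.15 (1.09 to 1.21). In macrophages 88.1% of the cells with 3 or more and 1.01% of those with 0 lay in 1 cluster, where 7 cells with 0 against 208 gave 4.52 (3.43 to 6.10). The other clusters with both kinds of cells held 8 to 11 macrophages with 3 or more each and gave 0.976, 1.04 and 1.69. The clusters were formed without the 67 genes but with other genes of the cell cycle among the variable genes. Hist1h1b stayed above 1 in all 3 tumor clusters, at 20.03, 6.91 and 4.24, and Hist1h2bc below 1, at 0.308, 0.636 and 0.590. Hist3h2a was below 1 in each as well, at 0.788, 0.724 and 0.621. Hist1h4i was at 1.10, 2.29 and 1.28.

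The summed fibroblast and monocyte markers moved with the split in tumor cells. The 6 fibroblast markers, all of them detected, summed to 2856 CPM in the tumor cells with 0 and 1677 CPM in those with 3 or more. Dcn alone was 2551 and 1498 CPM of this, and Col1a2 was at 17.4 and 16.0 CPM. Lum went the other way, from 4.03 to 8.14 CPM (ratio 2.02, 1.45 to 2.88). The 5 monocyte markers summed to 862 and 429 CPM, nearly all of it Ly6c1 (806 and 388 CPM), and Ly6c2 was at 0.930 and 0.881 CPM. In the cluster with most cycling tumor cells the fibroblast sum was 1.84 times higher in the cells with 3 or more, and Hist1h2bc was at 0.308 there. The 7 macrophage markers summed to 104 and 88.6 CPM in the same tumor cells.

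UMIs of MC38 genes were also found in the other classes, and their source was not tested. Rhox5 stood in macrophages at 6.22% of its tumor level in the cells with 0 and 5.55% in those with 3 or more, and in T cells at 7.93% and 5.51%; Shisal2b stood at 7.44% and 5.50% in macrophages and at 13.3% and 17.9% in T cells. If RNA of tumor cells came along in proportion to Rhox5, it would give 77.5 CPM and 69.1 CPM of the 67 genes in macrophages, of the 540 and 2870 CPM measured. All 21 and 39 members with 20 or more UMIs in these 2 groups lay above the level that share would give. For many of them the minimum of 20 UMIs alone already placed them there, so this count cannot tell the sources apart. Rhox5 was found in 30.8% of macrophages with 0 (median 8629 UMIs), where Hist1h1b was found in 12.8% and Hist1h4i in 20.9%, so a UMI of either in a single such cell is no sign that the cell made it.

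The split by Mki67 and Top2a does not separate S phase from G2 and mitosis, so the levels were also read along 38 genes of S phase and 50 genes of G2 and M. These lists hold none of the 67 genes, nor Mki67 and Top2a, and the quartiles of cells are ranges of a score and not cell types. In tumor cells the summed level of the 67 genes was 721, 906, 1248 and 1783 CPM from the lowest to the highest quartile of the S list, with 463 or 464 cells each; 120, 120 and 150 of the 1855 cells lay within 10% of the 3 limits between quartiles. The median cell of the 4 quartiles had 28137, 31728, 49136 and 52962 UMIs. Along the G2/M list the levels were 589, 681, 1593 and 1778 CPM. In macrophages the highest quartile stood out from the other 3 on both lists, with 588, 538, 844 and 2330 CPM along the S list and 469, 498, 583 and 2709 CPM along the G2/M list. The macrophages at the top of the S list were not alike, however. The 129 in its highest quartile but not in that of the G2/M list stood at 403 CPM (370 to 438), below the 530 CPM of the 853 in neither, while the 129 at the top of the G2/M list alone stood at 1468 CPM and the 199 at the top of both at 3376 CPM. Mki67+Top2a stood at 53.8 CPM at the top of the S list alone, 45.1 CPM in neither, 685 CPM at the top of the G2/M list alone and 913 CPM in both. In tumor cells the 4 sets, of 330, 1061, 330 and 134 cells, stood at 1583 CPM at the top of the S list alone, 774 CPM in neither, 1556 CPM at the top of the G2/M list alone and 2365 CPM in both.

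**Figure D4:**
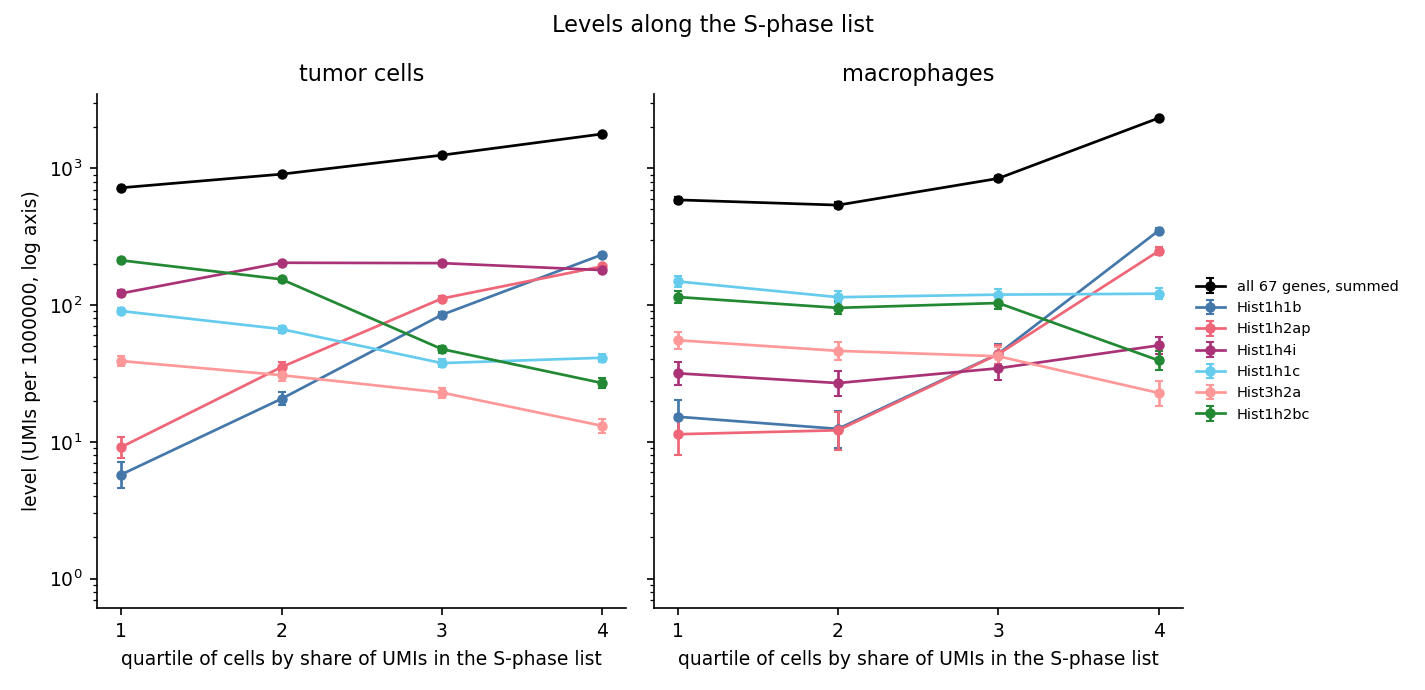
Level in UMIs per 1000000 (y axis, log axis) of the 67 genes together and of 6 single genes in quartiles of tumor cells (left) and macrophages (right), ordered by the share of their UMIs in the S-phase list (x axis). Error bars are exact 95% Poisson intervals. In tumor cells Hist1h1b goes from 5.76 to 234 and Hist1h2bc from 212 to 26.9.

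Single genes ran in opposite directions along the S list. In tumor cells Hist1h1b stood at 5.76, 20.6, 84.8 and 234 CPM in the 4 quartiles and Hist1h2ap at 9.15, 35.2, 112 and 192 CPM. Hist1h2bc stood at 212, 154, 47.7 and 26.9 CPM, so that its highest quartile held 0.127 times the level of its lowest. Hist3h2a, at 39.0, 30.7, 22.9 and 13.1 CPM, was also lower in each next quartile. Hist1h1c was at 90.4, 66.7, 37.6 and 41.2 CPM. Hist1h4i was at 122, 204, 203 and 180 CPM, close in the middle quartiles and lower again in the highest. Along the G2/M list Hist1h4i was at 93.5 CPM in the lowest and 250 CPM in the highest quartile, 2.67 times, and along the S list at 1.48 times.

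In macrophages Hist1h2bc and Hist3h2a were again lower and Hist1h1b and Hist1h2ap higher at the top of the S list. The highest over the lowest quartile of the S list was 22.9 for Hist1h1b and 21.8 for Hist1h2ap, against 0.344 for Hist1h2bc and 0.412 for Hist3h2a, with Hist1h1c at 0.813. For Hist1h1b and Hist1h2ap these values came from the cells that were also at the top of the G2/M list. At the top of the S list alone Hist1h2ap stood at 10.2 CPM against 11.0 CPM in neither, and Hist1h1b at 19.6 CPM (12.9 to 28.6) against 14.5 CPM (12.1 to 17.3), while at the top of both they stood at 377 and 529 CPM. Hist1h2bc and Hist3h2a were lower at the top of the S list with or without the G2/M list, at 35.6 and 21.1 CPM in the S list alone and 41.5 and 23.7 CPM in both, and highest at the top of the G2/M list alone, at 155 and 63.3 CPM against 96.6 and 45.5 CPM in neither. By histone class, tumor cells had 5.95 for H2A, 3.83 for H3, 3.58 for H1, 1.81 for H4 and 0.710 for H2B along the S list, and macrophages 7.19, 12.2, 3.49, 2.82 and 1.45. In tumor cells that were in the highest quartile of neither list Hist1h2bc stood at 136 CPM and Hist1h1b at 22.1 CPM, and in those in the highest quartile of both at 25.8 and 298 CPM. At the top of the S list alone Hist1h2bc was at 27.3 CPM and Hist1h1b at 211 CPM, and at the top of the G2/M list alone at 92.4 and 98.1 CPM. Hist3h2a in tumor cells was at 11.4 CPM at the top of the S list alone and at 32.9 CPM (30.2 to 35.9) at that of the G2/M list alone, above its 27.9 CPM (26.3 to 29.7) in neither.

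The annotated length after the stop codon ran with the ratio. Of the 67 genes, 24 have more than 200 bases there. In tumor cells 21 of these had 20 or more UMIs, with a median ratio of 1.70, of which 9 were at 2 times or more and 5 below 1. The 36 counted genes with 200 bases or fewer had a median of 3.30, with 30 at 2 times or more and 0 below 1. Several of these, Hist1h1b, Hist1h2bn and Hist1h3i among them, have 0 annotated bases after the stop codon. For them the length tells where the annotation stops and not how long the RNA is. Where a gene had several coding transcripts, the one with most bases after the stop codon was taken. In macrophages the medians were 4.61 and 11.6, with 12 of 19 and 26 of 27 at 2 times or more. The long group held 78.8% of all member UMIs in tumor cells with 0 and 44.2% in those with 3 or more, and 79.4% and 36.5% in macrophages. Across the 57 genes Spearman's rho between the length and the tumor ratio was -0.421, as a description over genes of shared sequence. Hist1h2bc, the lowest, has 742 bases after its stop codon and 2 exons, and no stem-loop was found in its annotated transcript. Hist1h1d goes against the pattern, with 4.69 at a long annotated end, as does Hist1h3f with 7.03.

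**Figure D5:**
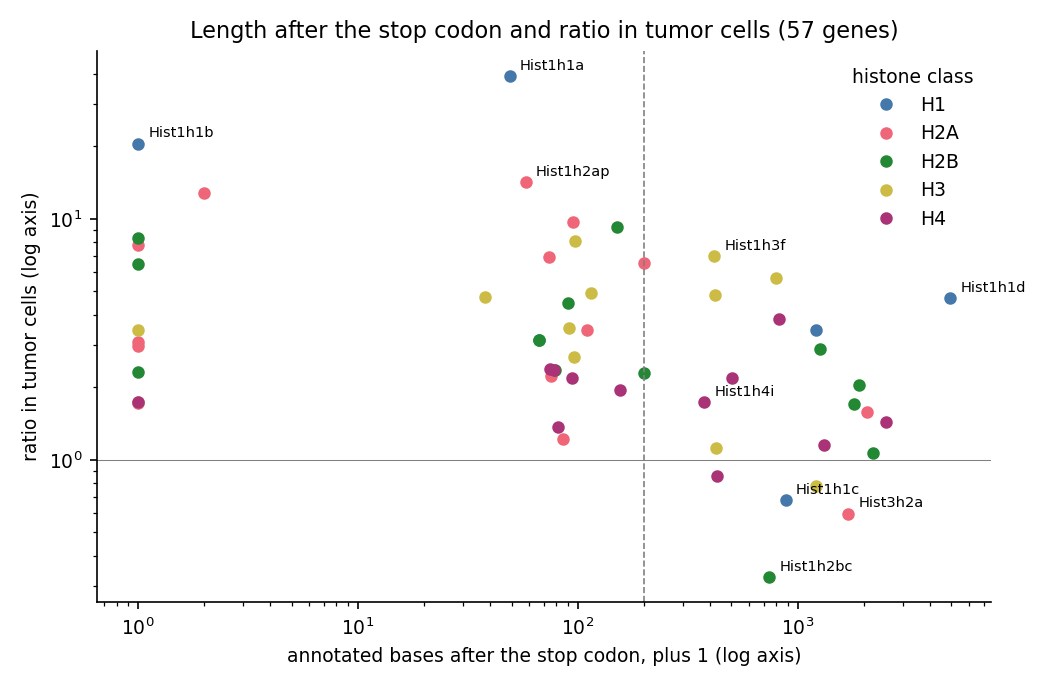
Ratio in tumor cells (y axis, log axis) of 57 genes against the annotated bases after the stop codon, plus 1 (x axis, log axis), coloured by histone class. The dashed line marks 200 bases, and the 5 genes below a ratio of 1 lie to its right.

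The lists of other genes of the pathway had lower median ratios than the clustered histone genes, though single chaperones were as high as the higher members. Of 17 genes found that process or control histone pre-mRNA, 2 of 16 counted were at 2 times or more in tumor cells, with a median of 1.41. Of all 12611 genes counted there 6.13% were at 2 times or more, and 2 of 16 is too few to be set apart from that share. The 2 genes were Slbp, the stem-loop binding protein, at 2.32, and Eri1, an exonuclease that acts on the stem-loop, at 2.04. Npat, the coactivator of histone transcription, was at 1.36 in tumor cells and 1.74 in macrophages. Of the 18 histone chaperones 7 were at 2 times or more in tumor cells, median 1.65: Asf1b (13.5), Chaf1a (4.74) and Chaf1b (4.35), which work in replication-coupled assembly, Hat1 (3.15), Hjurp (2.71), Nasp (2.64), which binds free H3 and H4, and Supt16 (2.09). Asf1a, the paralog of Asf1b, was at 1.57.

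Histone genes outside the clusters, most of which give polyadenylated mRNA, had medians close to those of the pathway lists: 1.45 in tumor cells, 1.76 in macrophages and 1.36 in T cells, against 1.65, 1.84 and 2.01 for the chaperones and 1.41, 1.45 and 1.73 for the processing genes. In tumor cells 4 of the 10 counted were at 2 times or more, against 6.13% of all genes counted there. These were Cenpa, the centromeric H3, at 4.23, H2afx at 3.53, H1fx at 2.79 on 82 UMIs, and H2afz at 2.36. The replacement H3 genes H3f3a and H3f3b were at 0.983 and 1.27 in tumor cells and at 1.42 and 1.36 in macrophages. H2afx was at 13.1 in macrophages, above the 10.0 of the clustered H2A genes there. For comparison, the lists of the cell cycle itself had medians of 4.13 for S phase and 6.72 for G2/M in tumor cells.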

How the data were processed

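Dissociated MC38 tumors were sequenced as 1 library with the Chromium Next GEM Single Cell 3' kit, version 3.1. The authors deposited raw UMI counts for each gene in each called cell, made with Cell Ranger on GRCm38; the file header gives version 5.0.1 and the study's methods name CellRanger V3, and the methods name ENSEMBL as the source of the genome, with no release of the gene annotation. Counts of near-identical histone genes depend on how reads that match several genes were treated. The library held 106631000 UMIs, with 511 to 231902 per cell (median 9248), and this depth sets the width of each interval.

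Cells with more than 20% mitochondrial UMIs (667) or under 200 genes (0) were removed, and 172 of 4640 remaining cells with the highest doublet scores (3.71%). Cells were clustered with the Leiden algorithm (leidenalg 0.10.2, resolution 0.5, 2000 variable genes without the 67 histone genes, 30 components) and named from marker lists. T cells are cells of the T and NK cluster with a UMI of a T-cell receptor or Cd3 gene. Unnamed clusters, most of them shallow, and 263 monocytes and dendritic cells were left out of the 3 classes. Levels are CPM of summed counts with exact Poisson intervals, ratios have exact conditional binomial intervals and shares Clopper-Pearson intervals. No test was run, since cells are not replicates. The ratio and its interval were tested on simulated data with known folds. The simulated counts were drawn for each group as a whole, without spread between cells, so this covers counting error only. Annotation features came from GENCODE M21 and promoters from RefSeq.

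Members that could be named were the 5 with most UMIs in each histone class, those with 50 or more UMIs at 2 times or more or 0.5 times or less in a cell class, and Hist1h1c, Hist1h2bc and Hist2h2be. From other lists these were up to 6 genes with most UMIs and every gene at 2 times or more in tumor cells. Not every gene that met this rule is printed. The members and lists were chosen with earlier results of these data known. Alternatives varied the cell filter, doublets, cluster resolution, classes, split, depth, scaling, count minimum and fold.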

Additional observations from a re-analysis of the deposited data

Results flagged for a closer look

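Hist1h1c had a ratio of 3.376 in T cells (2.04 to 5.57) and of 0.6809 in tumor cells (0.626 to 0.742), on opposite sides of 1, and the difference was not tested. Without the T cell with most of its UMIs in the group with 3 or more, which held 9 of 34, the T-cell ratio was 2.67 (1.53 to 4.58), and without the one in the group with 0 it was 3.83 (2.28 to 6.48).

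The monocyte and dendritic clusters, which enter none of the comparisons above, held the 67 genes at 2526 CPM (2305 to 2762) in 12 cells with 3 or more UMIs of Mki67+Top2a and at 614 CPM (571 to 660) in 199 cells with 0.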

How the results depend on the processing

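Over 78 alternative values of the summed ratio and of the number of members at 2 times or more, 56 stayed within their limits and 22 moved further. The limits were the counting interval of the pooled value for a ratio and 1.5 times for a number of members. Of the summed ratios 0 fell on the other side of 1. A number of members has no such side and could not reverse. The tumor ratio ranged from 1.944 to 2.661, the macrophage ratio from 2.991 to 6.644 and the T-cell ratio from 3.543 to 7.786. With classes from marker UMIs the ratio was 2.189 in tumor cells and 3.511 in macrophages. Splitting at 1 or more UMIs gave 2.009, 2.991 and 3.543 in tumor cells, macrophages and T cells, and at 10 or more 2.661, 6.644 and 7.786 (5 T cells). Thinned to 2000 UMIs, the ratios were 2.005, 3.891 and 3.688, with 21 of 29, 17 of 22 and 3 of 3 members at 2 times or more. Fewer members had 20 UMIs there, and the share of all genes was not computed in thinned cells. The mean over cells gave 1.944 in tumor cells. Leaving out macrophages with a UMI of Rhox5 or Shisal2b gave 5.615. Leaving out members with over 50% shared 90-base windows, an alternative added after seeing the data, gave 1.977, 4.479 and 4.744. There 25 of 37 tumor and 24 of 32 macrophage members were at 2 times or more, against 6.13% and 6.82% of all genes. Counting members from 1 UMI on gave 33 of 45 in T cells. At their unequal sums of UMIs, 1 UMI in each T-cell group already gives a ratio of 3.475, as for Hist1h2bh. The share of all genes was not computed at this minimum, so the count says little. Also added after seeing the data were the values within clusters, without the top cell of a gene, and with all cells of the T and NK cluster.

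For single members, 5 of these settings (both splits, thinning, mean over cells and marker classes) gave 255 tumor, 204 macrophage and 29 T-cell values, of which 8, 5 and 0 lay on the other side of 1. The sizes moved more often: thinning lowered 12 of 29 tumor and 11 of 22 macrophage ratios by over 1.5 times and raised 2 and 0, the split at 1 or more lowered 0 of 57 and 40 of 46, marker classes lowered 2 of 55 and 27 of 46, and the mean over cells lowered 11 of 57 and 0 of 46. Hist1h1b ran from 3.81 to 27.1 in tumor cells, 12.4 to 33.6 in macrophages and 8.02 to 31.0 in T cells, Hist1h2ap from 3.93 to 18.1 and 9.55 to 34.8 in tumor cells and macrophages, and Hist1h1a from 1.99 to 52.7 in tumor cells. Hist1h2bc stayed below 1 in tumor cells (0.220 to 0.472) and macrophages (0.660 to 0.978). Hist3h2a ran from 0.574 to 1.01 in tumor cells, and Hist1h1c from 0.633 to 0.939 there and from 0.598 to 1.52 in macrophages. The causes were not tested. No paired analysis was possible because there is 1 library. Depth limits the T cells most, where 7 members reached 20 UMIs.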

Other observations

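Cells outside the 3 classes also held these genes. In an unnamed cluster of 354 cells with a median of 1708 UMIs, the 67 genes stood at 1298 CPM (1197 to 1406) in 241 cells with 0 UMIs of Mki67+Top2a and at 3254 CPM (2722 to 3858) in 16 cells with 3 or more, with Hist1h1e and Hist1h1c leading in both groups. That cluster had 4 macrophage and 4 MC38 markers raised, Rhox5 at 188 CPM, and Ctsk, Atp6v0d2, Dcstamp and Ocstamp among its leading genes. In an unnamed cluster of 316 cells with a median of 760 UMIs the level was 1377 CPM (1226 to 1542) in 223 cells with 0 and 1614 CPM (1023 to 2421) in 8 cells with 3 or more, with intervals that overlap. In a further unnamed cluster of 100 cells, with 5 granulocyte markers raised, 89 cells with 0 stood at 649 CPM (510 to 815) and 4 cells with 3 or more at 730.5 CPM (378 to 1276). In a fibroblast-marker cluster of 103 cells Hist1h2bc led in 75 cells with 0, at 434 CPM for all 67 genes, and Hist1h1b led in 11 cells with 3 or more, at 1160 CPM (1017 to 1318).

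T cells with 1 or 2 UMIs of Mki67+Top2a stood at 1077 CPM, above those with 0; tumor cells and macrophages with 1 or 2 stood at 669 and 552 CPM, close to those with 0. Of the 190 UMIs in these 32 T cells, 58 were of Hist1h1c, 20 of them in 1 cell, and 32 of Hist1h2bc, 11 of them in 1 cell.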
